A study of Mustela putorius furo with 8 samples.

Results

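The genes described here are 9 genes of the canonical WNT pathway, DKK1, AXIN2, LEF1, TCF7L2, CTNNB1, APCDD1, RNF43, RSPO2 and TNFRSF19, chosen by their symbols among the 27912 genes of the count matrices. All 9 held at least 30 UMIs (unique molecular identifiers, the counted RNA molecules) over the retained cells, the limit set for describing a gene, as did 15921 genes in all. The cells were ferret (Mustela putorius furo) pancreatic ductal epithelial (PDE) cultures, grown from the pancreas of newborns 1 to 3 days old, carried through 10 passages and then polarized on permeable inserts at an air-liquid interface (ALI). Cultures were WT or CFTR KO/KO (called CF), the latter with knocked-out copies of the gene for the chloride and bicarbonate channel whose loss causes cystic fibrosis, and were taken on day 2, 5, 7 or 9 of ALI for 10x Genomics single-cell RNA sequencing. The days are those of the sample titles, while the growth protocol in the labels describes a longer period of polarization. Both genotypes had the same media and passaging. Cells of several donors of a genotype had been pooled, giving 1 library for each genotype and day, so values carry counting error only, days stand in for no replicate, and no test between genotypes was possible.

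WNT ligands bind Frizzled receptors together with LRP5 or LRP6, which stops a cytoplasmic complex built on AXIN proteins from marking β-catenin for destruction, so that β-catenin reaches the nucleus and acts with LEF1 and TCF proteins on target genes. Secreted and membrane inhibitors hold the signal back at the cell surface, R-spondins strengthen it, and several inhibitors are themselves induced by it. In the pancreas the pathway is known for roles in the growth of the embryonic organ and in ductal tumors.

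The 8 libraries held 32945 retained cells, 1607 to 6224 in a library, with 34735952 to 114585136 UMIs in a library. Levels were taken as CPM, the UMIs of a gene summed over the retained cells of a library or cluster per 1000000 UMIs of those cells. A sum over a library cannot tell fewer cells of a type from less RNA per cell. Pairs of libraries shared at most 14 cell barcodes. CFTR itself stood at 6.57, 16.9, 15.9 and 29.5 CPM in WT at day 2, 5, 7 and 9 and at 2.50, 8.69, 11.1 and 11.4 CPM in CF. CFTR was thus lower in the library labelled CF on each day, but it was counted in all of them, with 256, 621, 386 and 570 UMIs. The study's methods describe these knockout ferrets as making no CFTR mRNA, and the UMIs counted in the libraries labelled CF go against that description. The source of these UMIs was not tested. WT and CF stand below for the libraries as labelled, and each direction between them rests on the labels. The label Ductal was examined with marker lists: 6 ductal markers, keratins among them, were counted in every library, while 4 endocrine and 3 endothelial markers and the 2 acinar enzymes present in the matrices summed to no more than 0.12 CPM in any library. The 3 immune markers summed to 3.89 to 9.31 CPM in WT and to 20.9, 7.63, 4.43 and 6.06 CPM in CF in day order, nearly all of it CD68, while PTPRC and CD3E were each at most 0.0198 CPM. SOX2, a transcription factor of stem and progenitor cells, stood apart by genotype, at 68.5 to 115 CPM in WT but at 1 to 3 UMIs in each CF library. The day 7 CF library had the fewest cells and the smallest total but the highest median per cell, 23427 UMIs, and 411 of its 1607 cells held under 3000 UMIs. Relative to library totals, edgeR's TMM factors would shift the log2 ratio of CF to WT by between -0.15 at day 7 and 0.07 at day 5. The ratios given here are not corrected for this shift.

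A gene was called higher or lower in CF on a day where the pair of libraries held at least 30 UMIs of it, the ratio of CPM was at least 2 or at most 0.5, and the 95% interval of the ratio, which covers counting error only, left out 1. At day 2, 2 of the 8 genes tested were called higher in CF and 1 lower, where the same rule called 8.5% of all genes tested higher and 9.05% lower. At day 5, 2 of 9 were called higher and none lower, against 5.55% and 9.26% of all genes. At day 7, 4 of 9 were called higher and none lower, against 9.13% and 6.23%. At day 9, 4 of 9 were called higher and 2 lower, against 8.25% and 6.93%. The genes had been chosen with earlier results of these data known, so a share above that of all genes is a description and no test. None of the 8 genes tested on every day was called in 1 direction on all 4 days. Of all genes, 2.46% were called higher throughout and 2.89% lower, shares so low that none among 8 is no contrast. AXIN2 and APCDD1, 2 of those 8, were called in opposite directions on different days, as were 1.16% of all genes. The median log2 difference of the genes tested (8 at day 2 and all 9 on the later days), CF minus WT on log2 (CPM + 1), was 0.06, 0.13, 0.19 and 0.26 in day order, beside -0.01, -0.05, 0.12 and 0.07 over all genes tested.

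**Figure D1:**
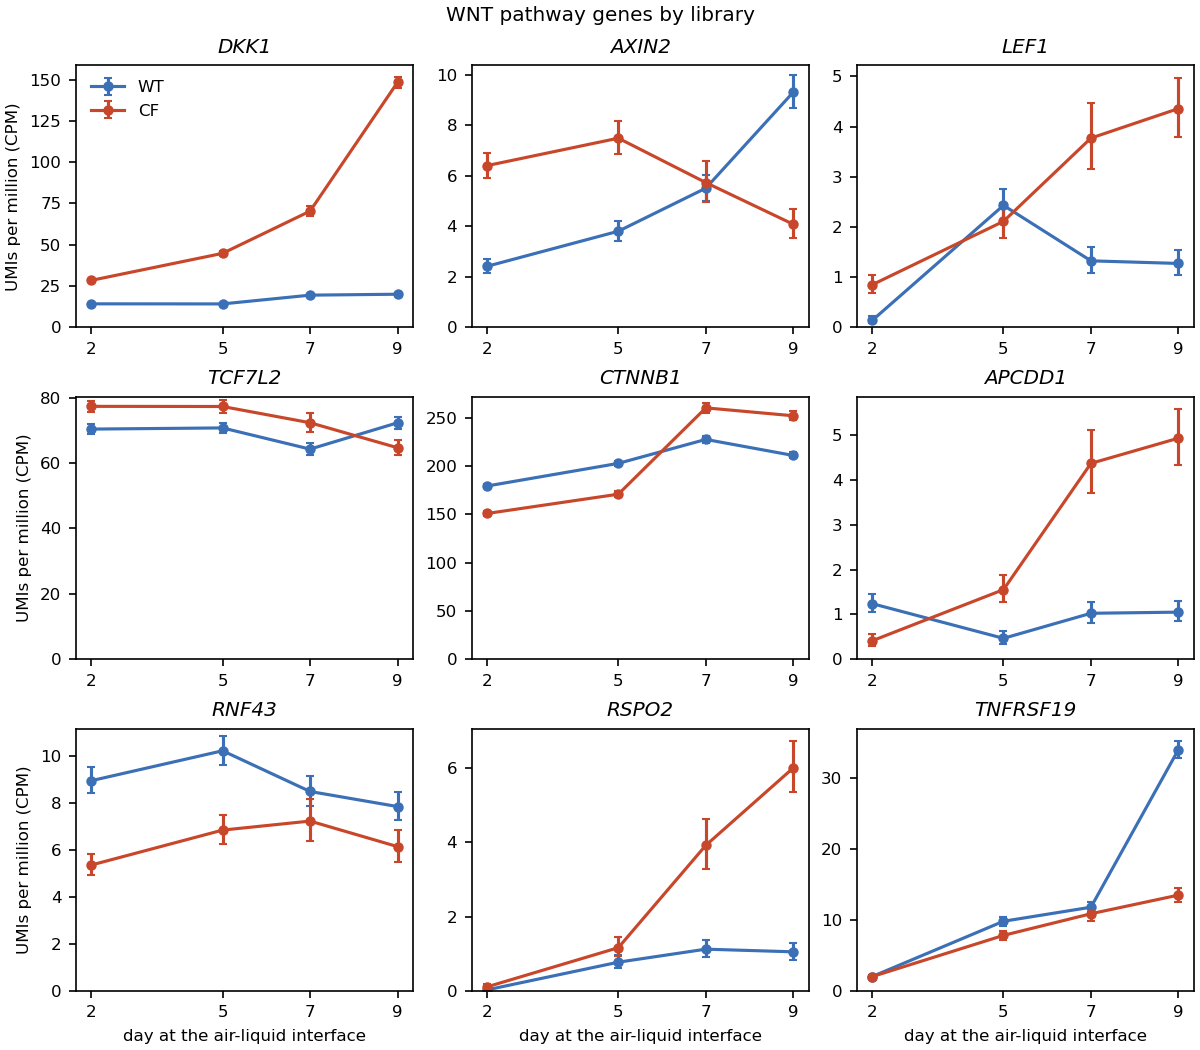
Level of each of the 9 genes in each library, in CPM, against day at the air-liquid interface, with lines for WT and CF and bars for exact Poisson 95% intervals. DKK1 parts between the genotypes at every day and reaches 148 CPM in CF at day 9, AXIN2 crosses over between day 7 and day 9, and TNFRSF19 reaches 34.0 CPM in WT at day 9 beside 13.5 CPM in CF.

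DKK1 encodes a secreted inhibitor that binds LRP5 and LRP6 and keeps WNT from them. It stood at 14.3, 14.2, 19.5 and 20.1 CPM in WT at day 2, 5, 7 and 9 and at 28.5, 44.8, 70.4 and 148 CPM in CF. All 4 CF libraries lay above all 4 WT libraries, and the share of all genes with such an order was not taken. In order of level, the intervals of neighbouring libraries overlapped only between WT day 5 and day 2 and between WT day 7 and day 9. The CF level was 1.996 times the WT level at day 2 (95% interval 1.88 to 2.12), just under the limit for a call, and 3.15 times at day 5 (2.96 to 3.36), 3.61 times at day 7 (3.38 to 3.84) and 7.39 times at day 9 (7.01 to 7.79). DKK1 was thus called at the last 3 of the 4 days. With equal weight for each class the day 2 ratio was 3.22 and past the limit.

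A larger share of CF than of WT cells held a DKK1 UMI on each day. The share of cells with at least 1 DKK1 UMI was 16.9%, 14.9%, 15.9% and 16.1% in WT in day order and 30.7%, 44.3%, 41.4% and 52.3% in CF. After each cell had been thinned to 3000 UMIs, to set the depths equal, the shares were 3.73% to 4.58% in WT and 6.52%, 10.3%, 13.2% and 22.9% in CF, so the order of the genotypes held at equal depth on each day. No class of these cultures can be taken to lack DKK1 and so to show the level of free RNA. Among clusters kept by the marker rule described with the clusters, with at least 100 cells in the library, the lowest share without thinning was 6.24%, 2.38%, 2.02% and 1.74% in WT in day order and 8.60%, 24.9%, 33.9% and 39.0% in CF. The median UMIs per cell of these clusters were 10479 to 15025 in WT and 14244 to 22902 in CF, beside 14949 to 23427 for whole libraries. These lowest shares may hold expression as well as free RNA. The level was uneven among cells: the 10% of cells with the most DKK1 held 63.8% of its UMIs in CF at day 9 and 80.6% in WT, and a single CF cell held up to 70.

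APCDD1 and RNF43 inhibit the pathway at the membrane. APCDD1, a membrane glycoprotein that binds WNT and LRP5, stood at 1.24, 0.464, 1.02 and 1.05 CPM in WT (142, 47, 85 and 89 UMIs) and at 0.410, 1.55, 4.38 and 4.94 CPM in CF (42, 111, 152 and 247 UMIs). WT was higher at day 2 and CF on the later days. The ratio of CF to WT was 0.331 at day 2 (0.229 to 0.470), then 3.34 at day 5 (2.36 to 4.81), 4.27 at day 7 (3.25 to 5.64) and 4.70 at day 9 (3.68 to 6.06), and each of these was called. The day 5 ratio was 1.86 when each class was given equal weight, and no longer called, and the day 9 ratio was then 8.88. Set against the SOX2-low WT cells described with the clusters, the day 2 ratio was 3.01 (0.784 to 25.7), from 2 WT UMIs, and was not called. RNF43, a ubiquitin ligase that removes Frizzled receptors from the cell surface, stood at 8.95, 10.2, 8.49 and 7.84 CPM in WT and at 5.36, 6.84, 7.23 and 6.14 CPM in CF. Every CF library lay below every WT library, but the differences were small. The intervals of the highest CF library, day 7 (6.36 to 8.18), and the lowest WT library, day 9 (7.26 to 8.46), overlapped. The share of all genes with such an order was not taken. The ratios of 0.599, 0.670, 0.852 and 0.783 had intervals under 1, the nearest at day 7 (0.734 to 0.985), and none met the 2-fold limit.

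RSPO2 is a secreted R-spondin, which binds LGR receptors and draws RNF43 and its relative ZNRF3 away from Frizzled. It was nearly absent at day 2, with 3 UMIs in WT and 11 in CF, too few for a call. At day 5, 7 and 9 it stood at 0.771, 1.12 and 1.05 CPM in WT (78, 93 and 89 UMIs) and at 1.16, 3.92 and 6.0 CPM in CF (83, 136 and 300 UMIs). CF lay above WT on each of these days, by 1.51 times at day 5 (1.09 to 2.08), which was not called, and by 3.49 times at day 7 (2.66 to 4.60) and 5.71 times at day 9 (4.50 to 7.32), which were. With equal weight for each class the day 9 ratio was 3.08.

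CTNNB1 encodes β-catenin, which also links cadherins to the cytoskeleton. It was abundant in every library, at 179, 203, 228 and 211 CPM in WT and 151, 171, 260 and 252 CPM in CF. CF was a little lower than WT at day 2 and day 5, with ratios of 0.841 and 0.843, and a little higher at day 7 and day 9, with ratios of 1.14 and 1.19 (1.17 to 1.22 at day 9). With equal weight for each class the ratios turned, to 0.971 at day 7 and 0.930 at day 9, and without CF cluster 11, described with the clusters, the day 9 ratio was 1.1. None of these was called.

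LEF1 and TCF7L2 bind DNA and carry β-catenin to target genes. TCF7L2 differed little between libraries, at 64.2 to 72.3 CPM in WT and 64.7 to 77.3 CPM in CF, with ratios of 1.1, 1.09, 1.13 and 0.894. LEF1 was sparse, at 0.14, 2.43, 1.33 and 1.27 CPM in WT (16, 246, 110 and 108 UMIs) and at 0.85, 2.11, 3.77 and 4.36 CPM in CF (87, 151, 131 and 218 UMIs). WT peaked at day 5, where the genotypes' intervals overlapped, and CF lay above WT on the other days. The ratio was 6.09 at day 2 (3.55 to 11.1), 0.869 at day 5 (0.705 to 1.07), 2.84 at day 7 (2.19 to 3.70) and 3.42 at day 9 (2.70 to 4.35). LEF1 was therefore called higher in CF at day 2, 7 and 9 but not at day 5. Set against the SOX2-low WT cells described with the clusters, the ratios were 1.14 at day 2 (0.604 to 2.36) and 1.71 at day 7 (1.26 to 2.35), and neither was called. The day 7 call did not hold without CF cluster 11, where the ratio was 1.86, and the day 9 ratio was 1.92 with equal weight for each class and 5.55 as a mean over cells.

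AXIN2 is a scaffold of the destruction complex and a widely used readout of the pathway, since β-catenin induces it and it then acts back on the signal. WT stood at 2.42, 3.80, 5.51 and 9.31 CPM in day order (277, 385, 457 and 789 UMIs) and CF at 6.40, 7.49, 5.73 and 4.08 CPM (655, 535, 199 and 204 UMIs). The genotypes thus moved in opposite directions from day 5 on, and their intervals overlapped at day 7, where the CF level was 0.934 of WT after TMM scaling. The ratio of CF to WT was 2.65 at day 2 (2.30 to 3.06), 1.97 at day 5 (1.72 to 2.25), 1.04 at day 7 (0.876 to 1.23) and 0.438 at day 9 (0.374 to 0.512), which gave a call of higher at day 2 and of lower at day 9. After TMM scaling the day 5 ratio was 2.06 and called as well. The share of cells with an AXIN2 UMI was 3.94%, 6.14%, 8.50% and 12.1% in WT and 12.0%, 14.7%, 8.53% and 6.83% in CF. After thinning to 3000 UMIs the share was higher in CF at day 2 and day 5, at 1.61% and 1.66% beside 0.602% and 1.04% in WT, and lower at day 9, at 1.32% beside 2.92%. The day 5 intervals overlapped, at 1.22 to 2.22 in CF and 0.785 to 1.36 in WT. At day 7 it was 1.25% in CF (15 cells, 0.704 to 2.06) and 1.86% in WT (1.49 to 2.30), and the intervals overlapped. With equal weight for each class the day 9 ratio was 0.822 and not called.

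TNFRSF19, or TROY, is a receptor of the tumor necrosis factor receptor family that β-catenin induces in several epithelia. It stood at 2.02, 9.79, 11.8 and 34.0 CPM in WT and at 2.00, 7.81, 10.9 and 13.5 CPM in CF. The genotypes were close at day 2, 5 and 7, with ratios of 0.994, 0.797 and 0.922, and parted at day 9, where CF was at 0.397 of WT (0.364 to 0.432). Only the day 9 difference was called, and it was 0.655 and not called with equal weight for each class. At day 9, then, the 2 genes of the 9 called lower in CF were AXIN2 and TNFRSF19, while the secreted inhibitor DKK1, the membrane inhibitor APCDD1, RSPO2 and LEF1 were called higher. The pathway list used here names DKK1, APCDD1, LEF1 and RNF43 as targets as well, so targets among the 9 were called in both directions that day.

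**Figure D2:**
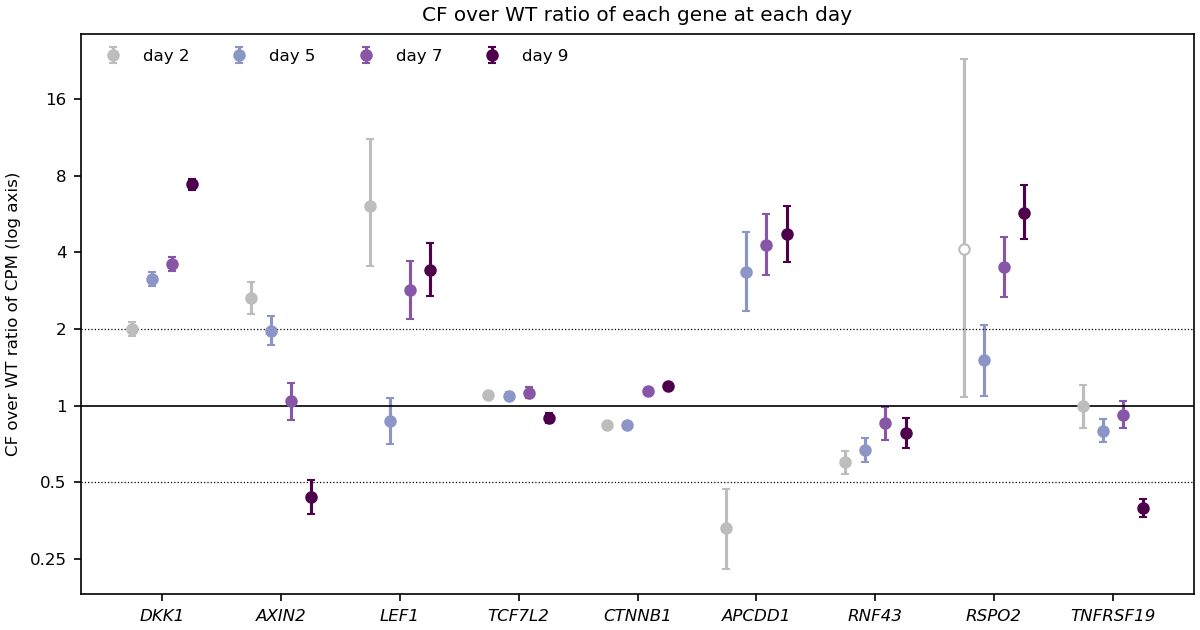
Ratio of CF to WT CPM on a log axis for each gene, in 4 colors for day 2, 5, 7 and 9, with exact conditional 95% intervals for counting error and lines at the limits for a call, 0.5 and 2. DKK1 and RSPO2 sit above 1 at every day, RNF43 below 1 at every day, and AXIN2 runs from 2.65 at day 2 to 0.438 at day 9.

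The change from day 2 to day 9 was taken within each genotype by the same rule. In WT, 4 of the 9 genes were called higher at day 9 and none lower, where 15.9% of all genes tested were higher and 8.1% lower. These were TNFRSF19 (16.9 times its day 2 level, 14.7 to 19.4), LEF1 (9.12 times), AXIN2 (3.85 times, 3.35 to 4.43) and RSPO2, whose ratio of 40.1 rested on 3 UMIs at day 2. In CF, 5 of 9 were called higher and none lower, against 14.3% and 5.16% of all genes. These were RSPO2 (55.8 times, 30.7 to 113), APCDD1 (12.0 times, 8.65 to 17.1), TNFRSF19 (6.73 times, 5.75 to 7.90), DKK1 (5.21 times, 4.99 to 5.44) and LEF1 (5.13 times).

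The genotypes differed in which genes moved with day and when. DKK1 at day 9 was 1.41 times its day 2 level in WT (1.31 to 1.51), under the limit for a call, while in CF it was 2.11 times its day 7 level in the last step alone. AXIN2 in CF stood at 0.637 of its day 2 level (0.542 to 0.747), and APCDD1 in WT at 0.847 of its own. TNFRSF19 in WT came in a step of 4.86 times from day 2 to day 5 and another of 2.88 times from day 7 to day 9. LEF1 in WT was 17.4 times higher at day 5 than at day 2 and then 0.545 of that at day 7. TCF7L2, RNF43 and CTNNB1 stayed within the 2-fold limit in both genotypes, the widest being CTNNB1 in CF at 1.67 times. The difference between the genotypes' changes was not tested.

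The cell table that the authors deposited gives each cell a cluster, numbered separately within WT (41 clusters) and CF (30 clusters), and each cluster 1 of 6 class names. Of the 71 clusters, 58 were kept under their class names by a marker rule. The rule counted markers of the 6 class names only, and it removed clusters whose markers spoke for another class rather than asking for their own: 14 of the 58 had a marker of their own class among their leading genes. WT clusters 3, 7 and 16 and CF clusters 3, 7 and 11, which made up most of the centroacinar class at day 9, had none, so that their name is the authors' and is not supported by leading genes here. The other 13 were left unnamed, 6 because another class had more markers than their own among their leading genes and 7 because their cells were shallow. DKK1 is a leading gene of CF cluster 7 and RSPO2 of CF cluster 3, so their levels there helped to define those clusters and are given as descriptions. The cluster values given next cover the 36 WT and 29 CF clusters of at least 100 cells.

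DKK1 in CF was spread over most clusters, with a peak in 1. CF cluster 7, named centroacinar, held 323 CPM (314 to 332), followed by cluster 11 at 149 CPM and the shallow cluster 21 at 89.9 CPM, and the lowest was cluster 2 at 6.93 CPM. In WT the highest were cluster 33 at 71.0, cluster 17 at 54.6 and cluster 30 at 54 CPM, and the median of clusters was 14.2 CPM beside 36.6 in CF. Of the 29 CF clusters, 26 lay above the WT median and 7 above the highest WT cluster. In WT cluster 33, 50% of cells held a DKK1 UMI at a median of 17513 UMIs per cell, and in CF cluster 7, 90.3% did at a median of 30121.

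CF cluster 7 was a day 9 population: 95.9% of its cells came from the day 9 library. There it took 19.0% of the cells, 28.3% of all UMIs and 63.7% of the DKK1 UMIs, at 333 CPM. Other clusters led on the other CF days: the progenitor cluster 4 at day 2 with 39.5% of the DKK1 UMIs (77.7 CPM), cluster 5 at day 5 with 23.3% (70.3 CPM) and cluster 11 at day 7 with 25.5% (158 CPM). When the cluster with the most DKK1 UMIs was left out in each genotype, the day 9 ratio was 3.86 and still called.

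CF clusters 3 and 11 held high levels of RSPO2, CTNNB1 and LEF1. RSPO2 stood at 17.5 CPM in CF cluster 3, which held 46.2% of the RSPO2 UMIs of all CF cells, at 7.71 CPM in cluster 16 and at 7.10 CPM in cluster 11, while the highest WT clusters, 8 and 5, stood at 3.91 and 3.79 CPM. CTNNB1 reached 434 CPM in CF cluster 3 and 412 CPM in cluster 11, beside 443 CPM in the shallow CF cluster 27. AXIN2 was nearly absent from CF clusters 3 and 11, with 1 UMI in cluster 3 (0.0716 CPM) and 0.296 CPM in cluster 11. Among CF clusters kept under their names, LEF1 was highest in cluster 11, at 12.6 CPM, followed by cluster 16 at 7.06 CPM, and stood at 5.87 CPM in cluster 3 and at 0.0676 CPM in the DKK1-rich cluster 7. Its highest values of all, 66.1 CPM in CF cluster 23, 24.8 in CF cluster 27 and 22.6 in WT cluster 20, came from shallow clusters with 53, 23 and 47 UMIs. A non-coding gene whose listed positions overlap LEF1, LOC123393484, is a leading gene of CF cluster 27. In WT the clusters with the most CTNNB1 were 5 (494 CPM), 20 (460 CPM) and 23 (441 CPM), and LEF1 in kept WT clusters was highest in 2 (5.30 CPM) and 0 (3.85 CPM). The authors had named all of these WT clusters ductal, whereas they had named CF clusters 3 and 11 centroacinar.

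Markers of fibroblasts or stellate cells moved with CF cluster 11. The summed level of 8 such markers, collagens and smooth muscle actin among them, was 3.11 to 7.53 CPM in WT, where 2 to 5 of the 8 were at 0 UMIs, and 9.47, 1.89, 54.1 and 30.5 CPM in CF in day order, where 0 to 2 were at 0. PDGFRA, 1 of the 8, was lower in CF, at 2.29 to 5.51 CPM in WT and 0.547 to 2.13 CPM in CF. CF cluster 11 held 80.8% of the list's UMIs in CF (359 CPM), and cluster 3 held 5.74% (18.5 CPM). Without CF cluster 11 the ratios at day 9 were 7.40 for DKK1, 5.68 for RSPO2, 5.33 for APCDD1 and 2.70 for LEF1, and at day 7 they were 3.03 for DKK1, 2.96 for RSPO2, 4.75 for APCDD1 and 1.86 for LEF1, of which LEF1 at day 7 alone lost its call.

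AXIN2 and TNFRSF19 lay in other clusters. AXIN2 in WT was highest in cluster 16 (24.1 CPM), followed by the progenitor clusters 18 (16.1 CPM) and 10 (15.9 CPM), and in CF in clusters 15 (16.3 CPM), 19 (16 CPM) and 17 (14.8 CPM). TNFRSF19 was also highest in WT cluster 16, at 68.3 CPM, followed by cluster 3 at 59.2 and cluster 17 at 48.6, and in CF in clusters 19 (36.2 CPM), 18 (28.2 CPM) and 17 (21.2 CPM). APCDD1 in CF was highest in clusters 21 (11.6 CPM, from 4 UMIs), 19 (11.4 CPM) and 18 (6.36 CPM), and in WT in clusters 12 (4.93 CPM) and 17 (3.73 CPM). RNF43 was lowest among CF clusters in cluster 7, at 2.64 CPM, and 25 of 29 CF clusters lay under the WT median. RNF43 was highest in the shallow clusters WT 20 (17.3 CPM) and CF 27 (18.3 CPM), and over kept clusters it reached 16.1 CPM in WT and 11.5 CPM in CF. TCF7L2 had the narrowest span, 52.4 to 143 CPM over WT clusters and 48.1 to 163 over CF clusters, and its upper ends lay in the same shallow clusters. Over the 32 WT and 21 CF kept clusters it spanned 52.8 to 98.8 and 48.1 to 91.1 CPM.

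**Figure D3:**
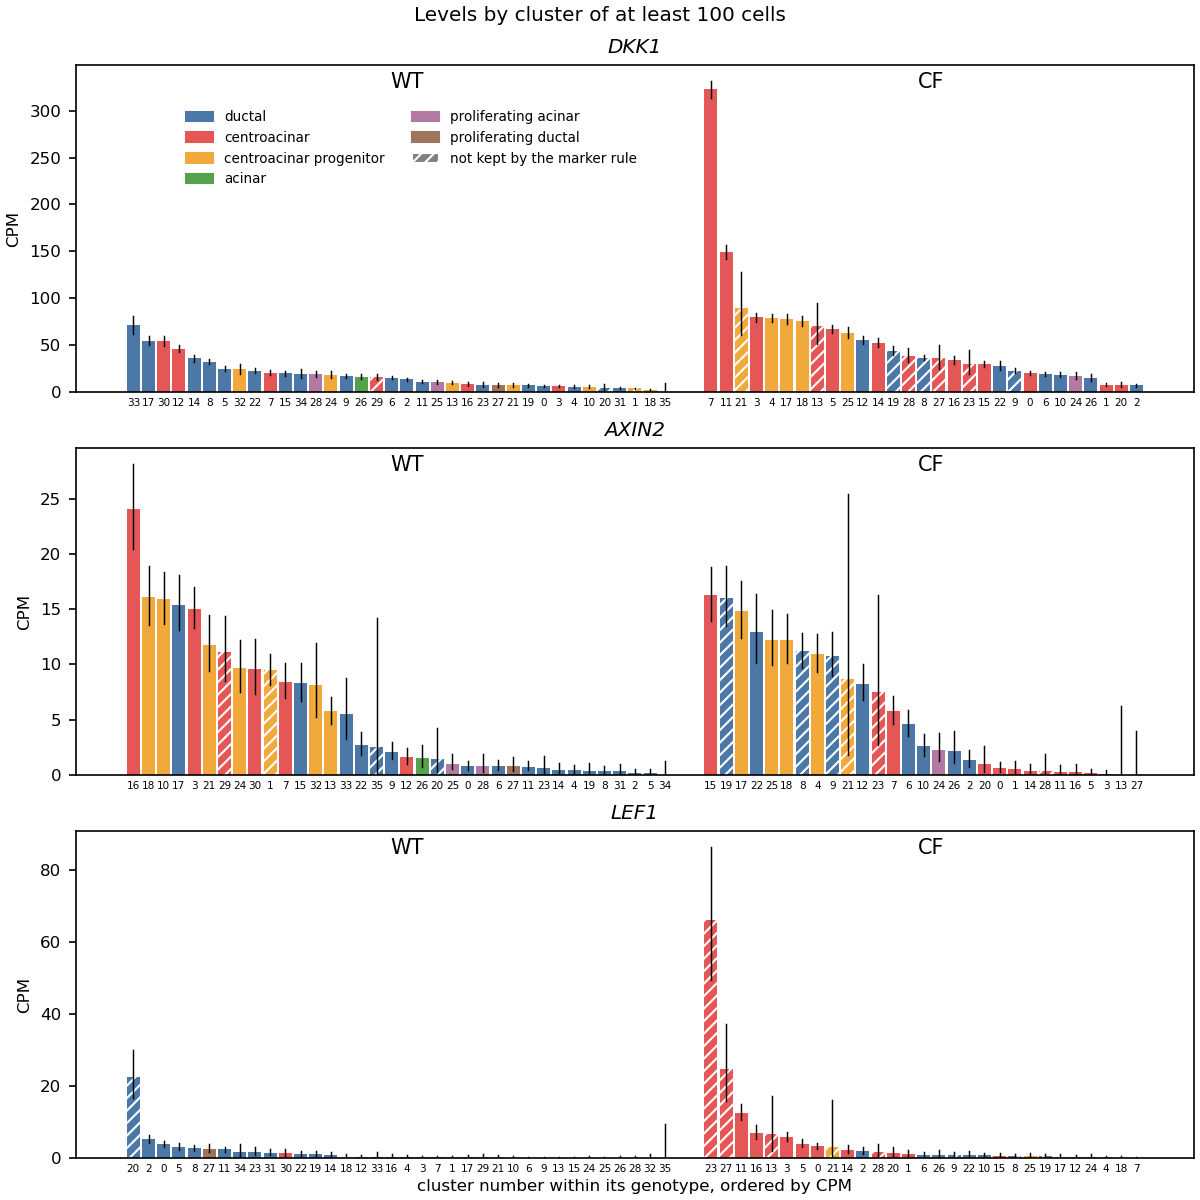
CPM of DKK1, AXIN2 and LEF1 in each WT and CF cluster of at least 100 cells, ordered by level and colored by class name, with exact Poisson 95% intervals and hatching for clusters left unnamed. CF cluster 7 stands above all others for DKK1 at 323 CPM, while LEF1 is led by the shallow CF cluster 23 and AXIN2 by WT cluster 16.

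Classes were compared at day 9 over kept clusters. The centroacinar class held 2192 WT cells, mostly of WT clusters 3 (44.0%), 7 (20.9%) and 16 (20.2%), and 1643 CF cells, mostly of CF clusters 3 (31.7%), 7 (28.8%) and 11 (16.2%). CF cluster 11 had 3 fibroblast or stellate markers (ACTA2, COL1A1 and COL1A2) among its 10 leading genes. It was the 1 kept cluster that would have been left unnamed had every marker list but the epithelial one been counted, an alternative added after seeing the data. The genotypes were clustered apart, so equal names do not make these the same population. In this class DKK1 stood at 14.8 CPM in WT and 177 CPM in CF, a ratio of 11.9 (10.9 to 13.1), and RSPO2 at 0.202 and 7.58 CPM, a ratio of 37.6 (18.0 to 94.3) from 7 and 290 UMIs. LEF1 stood at 0.461 and 3.95 CPM, a ratio of 8.56 (5.10 to 15.4), and CTNNB1 at 168 and 283 CPM, a ratio of 1.68. AXIN2 stood at 13.5 CPM in WT and 2.22 in CF, a ratio of 0.164 (0.129 to 0.208), and TNFRSF19 at 48.8 and 8.83 CPM, a ratio of 0.181 (0.160 to 0.203). Without CF cluster 11, over 1377 CF cells, the ratios were 12.3 for DKK1, 38.8 for RSPO2, 5.66 for LEF1, 1.56 for CTNNB1, 0.193 for AXIN2 and 0.212 for TNFRSF19. With and without that cluster, the differences in the centroacinar class had the directions of the whole libraries at day 9 and were larger for these 6 genes. With CF cluster 11 kept, TCF7L2 was also further from 1, at 0.816 in the class beside 0.894 in the libraries. The differences were smaller for APCDD1, at 3.87 beside 4.70, and for RNF43, at 0.918 beside 0.783. The class interval of RNF43 held 1. CF cluster 7, of which DKK1 is a leading gene, held 4723 of the 6785 CF DKK1 UMIs of the class. At day 9 this cluster stood at 333 CPM beside 177 CPM for the class, so without it the DKK1 ratio of the class would be under 11.9. That ratio was not computed, so the larger DKK1 difference of the class is given only with CF cluster 7 included.

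In the progenitor class DKK1 and APCDD1 were higher in CF, as in the centroacinar class, and the AXIN2 and TNFRSF19 ratios were nearer to 1. The class held 769 WT cells, 54.4% of them in WT cluster 21, and 180 CF cells, 77.2% of them in CF cluster 18. DKK1 stood at 7.90 CPM in WT and 79.3 CPM in CF, a ratio of 10.0 (7.97 to 12.8), and APCDD1 at 0.420 and 7.91 CPM, a ratio of 18.8. AXIN2 stood at 11.9 and 9.83 CPM, a ratio of 0.824, TNFRSF19 at 45.1 and 29.0 CPM, a ratio of 0.643, CTNNB1 at 122 and 110 CPM, a ratio of 0.900, and LEF1 and RSPO2 had 0 UMIs in both. In the ductal class, which held 2001 WT cells but 51 CF cells, DKK1 stood at 31.1 CPM in both (ratio 1.00), AXIN2 at 3.99 and 7.56 CPM (ratio 1.89) and APCDD1 at 1.39 and 14.3 CPM (ratio 10.3). When the unnamed clusters were put back under the authors' names, the CF ductal class had 284 cells, and the ratios were 1.26 for DKK1, 3.01 for AXIN2 and 9.65 for APCDD1. TNFRSF19, at a ratio of 0.954 over the kept ductal clusters, then had one of 2.52 (2.13 to 2.98).

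**Figure D4:**
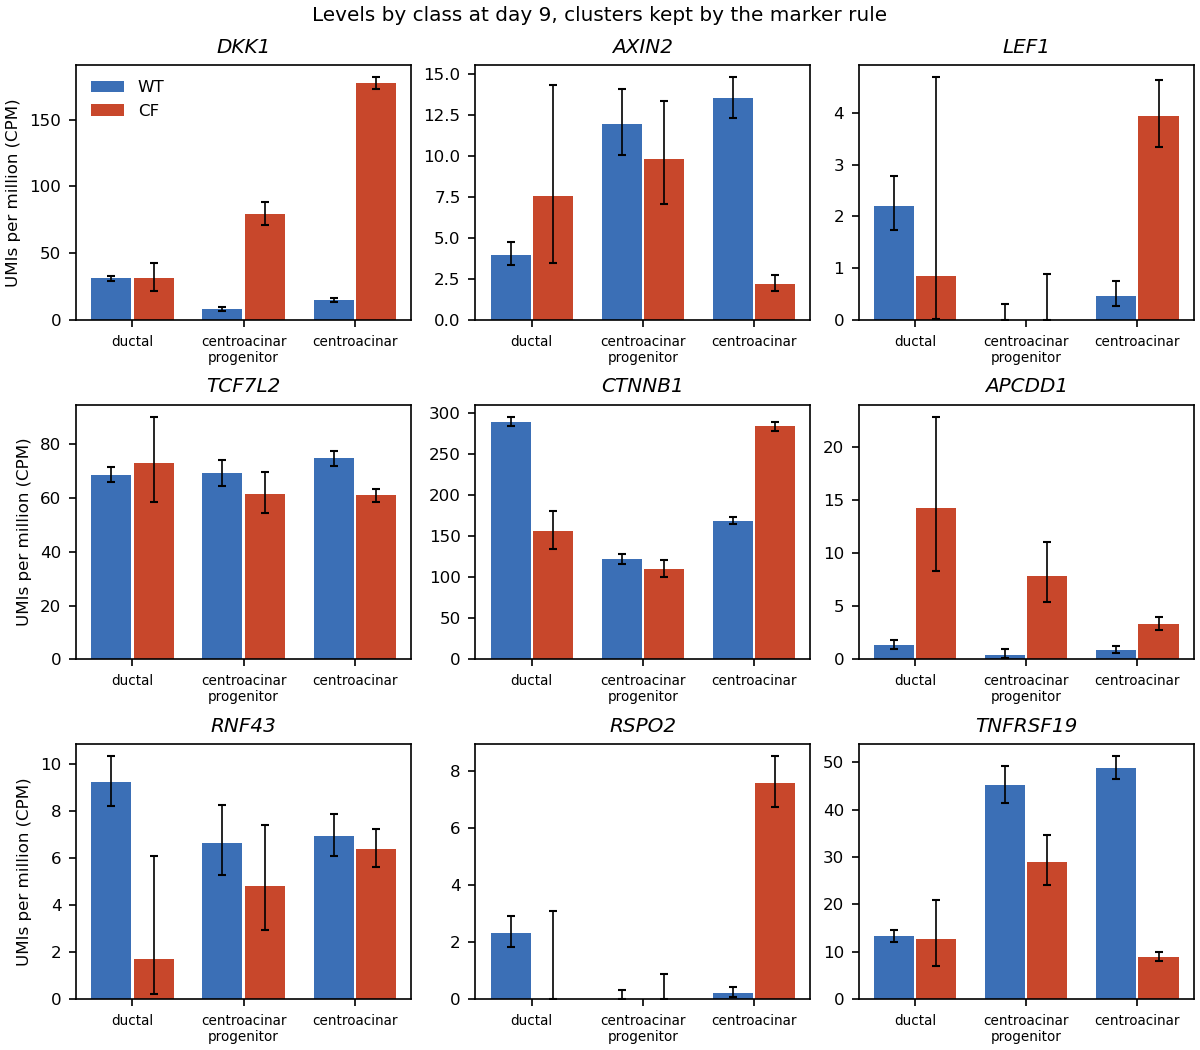
CPM of each gene at day 9 in the ductal, centroacinar progenitor and centroacinar classes of WT and CF, from clusters kept under their names, as bars from 0 with exact Poisson 95% intervals. CF bars are the higher ones for DKK1 in the progenitor and centroacinar classes and the lower ones for AXIN2 and TNFRSF19 in the centroacinar class.

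Over the days, the DKK1 difference was present in the progenitor class from day 2 on and in the centroacinar class was widest at day 9. There CF cluster 7 held 4723 of the 6785 CF DKK1 UMIs of the class, and the interval (10.9 to 13.1) overlapped that of the progenitor class at day 2. The progenitor ratio was 10.4 at day 2 (8.59 to 12.7, from 7.47 CPM in WT and 77.8 CPM in CF), 5.35 at day 5, 8.57 at day 7 and 10.0 at day 9, with WT cluster 13 and CF cluster 4 holding 95.9% and 99.8% of the class at day 2. The low day 5 value depended on the clusters kept. Its interval was 4.42 to 6.51 over kept clusters, and the ratio was 8.04 (6.83 to 9.52) with the unnamed clusters put back. That interval overlapped the day 2 interval with all clusters (8.61 to 12.8), and the day 7 ratio was then 10.8 (9.15 to 12.7). The centroacinar ratios from day 5 were 1.15, 1.74 and 11.9, and the ductal ratio was 1.02, 3.28, 2.29 and 1.00 in day order. Putting the unnamed clusters back gave ductal DKK1 ratios of 1.40, 3.32, 2.32 and 1.26. The day 2 interval was then 1.29 to 1.51, above that over kept clusters (0.922 to 1.12). AXIN2 was higher in CF in the ductal class, by 2.04, 8.91 and 4.18 times at day 2, 5 and 7 (3.29, 9.73 and 9.39 times with the unnamed clusters put back), and lower in the centroacinar class at day 7 (0.190) and day 9 (0.164). LEF1 was likewise split, at 7.39, 8.41 and 8.56 times in the centroacinar class from day 5 to day 9 while in the ductal class it was 5.44 at day 2 (2.95 to 10.6), 0.146 at day 5 and 0.166 at day 7, the last from 1 CF UMI (0.00415 to 0.948). Without CF cluster 11 the centroacinar ratios of LEF1 were 5.56 at day 7 and 5.66 at day 9, and that of DKK1 at day 7 was 1.25. CTNNB1 had ratios of 0.842, 0.600, 0.661 and 0.541 in the ductal class and 1.15, 1.20 and 1.68 in the centroacinar class from day 5. In the ductal class at day 2 APCDD1 was at 0.125 of WT and TNFRSF19 at 0.450, or at 1.51 with the unnamed clusters put back. APCDD1 at day 5 was higher in CF in the ductal class, at 20.6 times (9.02 to 54.7), and lower in the centroacinar class, at 0.494 (0.296 to 0.834), the class that held the most CF cells. TNFRSF19 at day 5 was likewise 5.01 times higher in the ductal class and at 0.231 in the centroacinar class. RSPO2 went the other way, at 0.222 in the ductal class and 13.8 times in the centroacinar class at day 5, and at day 7 it had 0 UMIs in CF ductal cells beside 7.52 times in the centroacinar class. The ductal and the centroacinar class thus differed in opposite directions, with intervals on either side of 1, for APCDD1 and TNFRSF19 at day 5, for AXIN2 at day 7, for LEF1 and RSPO2 at day 5 and day 7 and for CTNNB1 at day 5, 7 and 9. With the unnamed clusters put back, this was also so for TNFRSF19 at day 7 and day 9 and for AXIN2, LEF1 and RSPO2 at day 9. These statements rest on the intervals alone, without the 2-fold limit of a call. The share of all genes that differed in this way was not taken, so nothing here shows it to be particular to the 9 genes. The shares of cells in these classes differed as well. Kept ductal clusters made up 70.2% of WT cells at day 2 and 36.9% at day 9, and 39.9% and 2.05% of CF cells. With the unnamed clusters put back the WT shares were 71.5% and 39.7% and the CF shares 57.6% and 11.4%.

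Of the 41 WT clusters, 12 were low in SOX2 (under 10 CPM), and set against these WT cells alone the CF libraries gave other ratios. DKK1 was then 1.24, 4.09, 3.31 and 4.10 times higher in CF in day order, against 2.19, 2.64, 3.78 and 11.4 times over the remaining WT cells. AXIN2 was 4.95, 6.68 and 2.22 times higher in CF at day 2, 5 and 7 and at 0.634 of the SOX2-low WT level at day 9. TNFRSF19 stood at 0.865, 5.17, 1.95 and 0.665 of it. RNF43 remained lower in CF on each day, at 0.591, 0.560, 0.696 and 0.660, and TCF7L2 remained within 0.917 to 1.06.

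Across clusters the 9 genes fell along different lines. Pearson's r of log2 (CPM + 1) over the 36 WT and 29 CF clusters was 0.932 in WT and 0.663 in CF for AXIN2 with TNFRSF19, 0.785 and 0.896 for CTNNB1 with RSPO2, and 0.587 and 0.808 for CTNNB1 with LEF1. AXIN2 ran against CTNNB1, with r of -0.612 and -0.773. DKK1 had an r of -0.02 and 0.16 with AXIN2 and of 0.607 and 0.535 with APCDD1. The shallow clusters are among these. Over kept clusters alone, chosen after seeing the data, r was 0.929 and 0.766 for AXIN2 with TNFRSF19, 0.792 and 0.905 for CTNNB1 with RSPO2, 0.484 and 0.915 for CTNNB1 with LEF1, and -0.628 and -0.803 for AXIN2 with CTNNB1. These are descriptions: clusters share libraries and differ in depth, and are not independent samples.

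Among 9854 genes with at least 10 CPM in a cluster of each genotype, the genes most like each of the 9 were ranked by the lower of the WT and the CF r. The pattern of AXIN2 was closest to TMC5 (0.948), ERBB3 (0.923), a receptor tyrosine kinase, and SCNN1A (0.921), a subunit of the epithelial sodium channel. That of TNFRSF19 was closest to ATP6V1B1 (0.941), a proton pump subunit, SHANK2 (0.939) and PAK2 (0.927). CTNNB1 was closest to COLGALT1 (0.924), which modifies collagen, HHIPL1 (0.923) and TGFBR1 (0.922), a TGF-β receptor. TCF7L2 was closest to NIPBL (0.873), GIT2 (0.840) and BPTF (0.836), and RNF43 to ZNF326 (0.839), PPP1R12A (0.819) and ZNF462 (0.811). The ranking took in the shallow clusters, where TCF7L2 and RNF43 had their highest levels, as did CTNNB1 in CF. The r of TCF7L2 with LEF1, for example, was 0.393 in WT and 0.552 in CF with those clusters but 0.0593 and 0.120 over kept ones. No gene followed DKK1 closely: its best were ACTR3 (0.597), TM7SF2 (0.596) and LOC101690142 (0.592). LEF1 was closest to APBB2 (0.907), TRPM3 (0.900) and SUPT20H (0.879), but it met the limit of 10 CPM in WT only through the shallow cluster 20, and the next WT cluster stood at 5.30 CPM. APCDD1 and RSPO2 were under the level needed for this ranking.

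The rest of the pathway was examined with a list of 90 other genes by role, of which 88 were in the matrices and 57, 59, 59 and 60 held enough UMIs for a call at day 2, 5, 7 and 9. In day order 2, 5, 4 and 5 of them were called higher in CF and 8, 8, 5 and 5 lower, with median log2 differences of 0.01, 0.02, 0.30 and 0.15. These shares of 3.51% to 8.47% higher and 8.33% to 14.0% lower stand beside 5.55% to 9.13% higher and 6.23% to 9.26% lower over all genes tested on those days. None of the 12 other cytoplasmic transducers tested, among them the DVL, GSK3 and casein kinase genes, was called on any day.

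Of the 12 other secreted inhibitors, SFRP1, which binds WNT ligands, was the single one with enough UMIs for a call, at 145, 270, 212 and 226 CPM in WT and 143, 108, 222 and 245 CPM in CF. It was lower in CF at day 5 (ratio 0.401) and close on the other days, so that its course did not follow that of DKK1. Of the other R-spondin and LGR genes, LGR4, a receptor of RSPO2, was the single one tested, at 1.52 to 1.74 times the WT level in CF and not called, while LGR5 held 0 to 3 UMIs in each library. Each list gene was counted under a single role. Of the 5 others counted as targets, SP5 was called lower in CF at day 2, 7 and 9, MYC lower at day 2 and CCND1 higher at day 5 and day 9. The list names TCF7, ZNRF3, NKD1, NOTUM and LGR5 as targets too, but they were counted under other roles. TCF7 and ZNRF3 were tested and not called on any day. NKD1, NOTUM and LGR5 held too few UMIs for a call on every day.

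Of the 57 other list genes tested on all 4 days, 1 was called higher and 1 lower throughout, and both are ligands. The same rule called 2.46% of all genes higher throughout and 2.89% lower. WNT6 stood at 0.131, 0.514, 0.542 and 0.248 CPM in WT and 1.17, 2.45, 2.85 and 1.82 CPM in CF, higher by 8.96, 4.76, 5.25 and 7.35 times. WNT3A stood at 2.13, 1.37, 1.64 and 1.18 CPM in WT and 0.410, 0.574, 0.317 and 0.280 CPM in CF, at 0.193, 0.418, 0.193 and 0.237 of WT. Beyond these, WNT7A was the list gene furthest below WT, at 1.80, 21.5, 12.4 and 11.8 CPM in WT and 0.537, 1.82, 5.01 and 6.20 CPM in CF. PYGO1, a nuclear partner of β-catenin, had ratios of 0.204, 0.219, 0.519 and 0.725. On the other side, WLS, which carries WNT ligands to the cell surface, had ratios of 1.88, 1.95, 2.47 and 1.99, and the receptor FZD5 had ratios of 2.14, 2.06, 1.83 and 1.23.

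**Figure D5:**
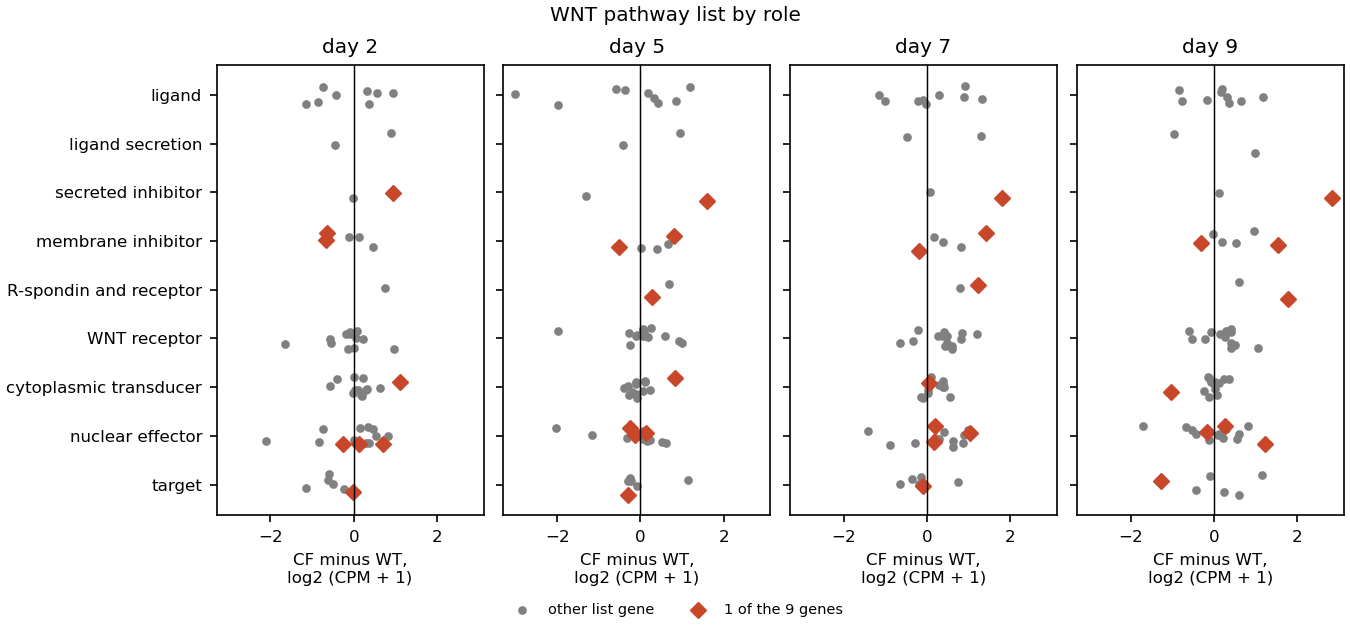
Difference of CF minus WT on log2 (CPM + 1) for each tested gene of the pathway list, by role and day, with the 9 genes described here as diamonds and the other list genes as grey points. DKK1 lies furthest to the right at day 9, and most other list genes lie near 0, their median being 0.15 at day 9.

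In the RefSeq annotation of assembly ASM1176430v1.1 all 9 are protein coding, on sequences for which the table used here names no chromosome. DKK1 spans 4590641 to 4594033, AXIN2 9105472 to 9136854, LEF1 7216646 to 7336001, TCF7L2 16937346 to 17134120 and CTNNB1 128430363 to 128469715. APCDD1 spans 8047673 to 8080298, RNF43 11209121 to 11273845, RSPO2 11437544 to 11592899 and TNFRSF19 4912603 to 5003376. The positions of 5 of the 9, AXIN2, LEF1, TCF7L2, CTNNB1 and APCDD1, overlap those of another listed gene, and shared reads were not tested.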

How the data were processed

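Ferret PDE cultures of 2 genotypes were measured on 4 days by 10x Genomics single-cell RNA sequencing, with 1 library for each. The authors counted UMIs with Cell Ranger 5.0.1, and the deposited matrices hold whole UMI counts of 44243 barcodes. In Seurat (R 4.1.2) they required 200 genes in a cell and no more than 20% mitochondrial reads, and removed doublets, so none were called here. The authors' cell table gives 32945 retained cells with library, cluster and class, and its deposited percent of mitochondrial UMIs was used only to describe cells. Genotype and day came from the sample titles. No column lacked a sample.

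UMI sums were scaled to CPM with exact 95% intervals: Poisson for a level, conditional binomial for a ratio, Clopper-Pearson for a share of cells. Intervals and floors (3 counts for a count of 0) cover counting error only. Thinned shares used cells of at least 3000 UMIs. With 1 library per group there was no p-value. The 9 genes, the WNT list and the markers were chosen with earlier results of these data known, and many class markers are the study's own, picked on these libraries. Named list genes were those called in 1 direction on all 4 days, then the 2 in each direction with the largest mean log2 difference among those with 30 UMIs in every pair. A cluster was called shallow where its median UMI count was under 1 part in 3 of its libraries' with no marker of its class among its 10 leading genes. The call rule was tested on simulated counts.

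Alternatives were TMM factors (edgeR 4.0.16) and DESeq2 1.42.0 size factors, other filters and pseudocounts, cell and cluster subsets and class weights. Software was R 4.3.3, Python 3.11.15, numpy 2.4.6, scipy 1.17.1, pandas 2.3.3 and matplotlib 3.10.9.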

Additional observations from a re-analysis of the deposited data

Results flagged for a closer look

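For 2 of the 9 genes the CF to WT ratio was called in opposite directions on different days. AXIN2 was higher in CF at day 2 (ratio 2.65) and lower at day 9 (ratio 0.438). APCDD1 was lower in CF at day 2 (ratio 0.331) and higher at day 5 (3.34), day 7 (4.27) and day 9 (4.70). With 1 library for each genotype and day, the difference between the days was not tested. Against SOX2-low WT cells, APCDD1 at day 2 had 2 UMIs in WT and its ratio of 3.01 had an interval of 0.784 to 25.7. AXIN2 at day 9 stood at 0.634 against those cells and at 0.822 with equal weight for each class, and neither was called. On log2 (CPM + 1) the difference of APCDD1 at day 2 was -0.667, which is within 2-fold.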

How the results depend on the processing

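Each ratio was recomputed under 13 alternatives, and under 2 chosen after seeing the data (clusters kept by the marker rule only, and without CF cluster 11), neither of which moved a count of called genes by over 1.5 times. Of 539 ratios of the 9 genes, 383 stayed within their counting interval; of 196 class ratios, those with every marker list counted (also chosen after seeing the data) included, 180 did, and of 108 ratios of day 9 to day 2, 80 did. In all, 18, 6 and 4 of these turned past 1. Turns of ratios that were not called included TNFRSF19 at day 5 (0.797 to 5.17) and CTNNB1 at day 5 (0.843 to 1.23), both against SOX2-low WT clusters, and TNFRSF19 in the ductal class at day 7 (0.505 to 6.03 with unnamed clusters put back). The called ratios that turned were APCDD1 at day 2 (3.01 against SOX2-low WT clusters) and TNFRSF19 in the ductal class at day 2 (0.450 over kept clusters, 1.51 with unnamed clusters put back). The cause was not tested. On log2 (CPM + 1), 1 gene was called higher and 0 lower at day 2, and 1 higher at day 5. On log2 (CPM + 5), and likewise among genes of at least 10 CPM, the counts were 0 and 0 at day 2, 1 higher at day 5, 1 higher at day 7 and 1 higher and 1 lower at day 9; sparse genes cannot pass these by construction. Against SOX2-low WT clusters 1 gene was higher and 0 lower at day 2, 5 higher at day 5 and 0 lower at day 9. Equal weight for each class gave 1 higher at day 5 and 0 lower at day 9, and leaving out the cluster with the most UMIs gave 1 lower at day 9. Among the other list genes, those of at least 10 CPM gave 1 higher and 2 lower at day 2, 2 higher at day 5, 1 and 2 at day 7, and 2 and 1 at day 9, and no UMI minimum gave 8, 12 and 10 higher at day 5, 7 and 9. An alternative can change the calls of every gene, and the share of all genes called under each is not given here. These counts therefore show how calls depend on the processing and say nothing particular to the 9 genes or the list. No paired analysis was possible because no result comes from a test: each genotype and day has 1 library, and the days that match WT with CF libraries are not replicates. Depth limits RSPO2 and LEF1 at day 2 most, with 3 and 16 UMIs in WT.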
